A study of Mus musculus with 4 samples.

Results

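Retinoic acid is made, held and destroyed inside cells of the testis by a small set of proteins, and the transcripts of 9 of them were followed here across the cells of the mouse testis at postnatal day 8. STRA6 takes retinol up from its carrier in blood, RDH10 oxidises retinol to retinaldehyde and DHRS3 turns retinaldehyde back to retinol. ALDH1A1 and ALDH1A2 oxidise retinaldehyde to retinoic acid, CRABP1 and CRABP2 bind it in the cytoplasm, and CYP26A1 and CYP26B1 break it down. Retinoic acid is known as the signal that moves spermatogonia into differentiation and, later, meiosis, and its supply by Sertoli cells and its removal by cells around the tubule are established features of this tissue. The 9 genes (*Aldh1a1*, *Aldh1a2*, *Rdh10*, *Dhrs3*, *Cyp26a1*, *Cyp26b1*, *Crabp1*, *Crabp2* and *Stra6*) were taken by name from the 30828 genes of the matrices, and all 9 were found.

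Control mice were *Cnot3* flox/flox without Cre, labelled wild-type, and Cnot3-cKO mice were *Cnot3* flox/flox; *Ddx4*-creER, in which a tamoxifen-activated Cre is made from the germ cell gene *Ddx4*. Mice of both groups received 4OHT (4-hydroxytamoxifen) from postnatal day 1, and the last day of injection differs between the labels of the 4 samples, while the methods of the study give 1 schedule for all mice, so that day was not used. Testis cells at postnatal day 8 had been sorted as CD9+/THY1+ and were run on a droplet platform that counts each captured RNA molecule as 1 unique molecular identifier (UMI). The 2 samples of each genotype are merged in 1 matrix, so that 1 control library of 181550221 UMIs was compared with 1 Cnot3-cKO library of 168770743 UMIs, without replicates and without any test. The labels leave unstated if a genotype's samples were separate libraries or sequencing runs of 1 library, and the methods of the study name a pair of sequencers. Levels are given as UMIs per 1000000 UMIs of a cell class (CPM), and bracketed ranges are exact 95% intervals that cover counting error only. A level in these sums is that of a whole class of cells, so a smaller share of expressing cells and less RNA per cell are told apart only where shares of cells are given.

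After the filters stated by the study, 5615 control and 6034 Cnot3-cKO cells were kept, of which 241 and 72 were germ-like, 1400 and 1724 Sertoli-like, 1223 and 1472 myoid-like (the contractile cells around the tubule), 2057 and 2064 stromal-like, 50 and 61 macrophage-like and 33 and 37 endothelial-like. A further 611 and 604 cells stayed unnamed. All 7 markers of the germ, Sertoli, myoid, macrophage and endothelial lists, and 6 of 7 of the stroma list, were highest in their own class in both libraries. Summed Leydig markers lay between 3.31 and 43.6 CPM in every class, so no Leydig class was called. The filters kept 241 of the 1333 control and 72 of the 560 Cnot3-cKO germ-like cells found in a wider set, which allows up to 20% mitochondrial UMIs and sets no upper bound, and germ values that rest on few UMIs are therefore given from both sets. *Cnot3* itself had 69.4 and 38.4 CPM in germ-like cells (492 and 58 UMIs), a log2 ratio of -0.85 (-1.27 to -0.46), and between -0.13 and 0.06 in the other 5 classes. These are 3′ reads, and whether they lie in the floxed exons is not given in the sources used here. The libraries shared 18 called barcodes, against 11.5 for barcodes drawn at random.

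The promoters of *Cyp26a1* and *Crabp1* are shown because they differ in the motif that retinoic acid receptors bind. That motif was searched as a direct repeat spaced by 5 bases (DR5) of 6-base cores, where a core was the usual form AGGTCA or a variant written as AGTTCA, a further variant written as GGGTCA, or the remaining variant written as GGTTCA, on both strands, in the 300 bases from 250 before to 50 after each RefSeq start site. Capitals mark the cores of the repeat, here on the strand opposite to the gene, in the 250 bases before the start site (RefSeq, GRCm38.p6, plus strand, chr19:37697558-37697807 for *Cyp26a1* and chr9:54764498-54764747 for *Crabp1*).
Cyp26a1: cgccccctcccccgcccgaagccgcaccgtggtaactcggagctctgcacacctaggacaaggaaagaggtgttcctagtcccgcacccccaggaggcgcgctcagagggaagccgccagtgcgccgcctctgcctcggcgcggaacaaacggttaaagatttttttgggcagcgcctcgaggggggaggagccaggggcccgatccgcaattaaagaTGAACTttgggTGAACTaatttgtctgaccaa
Crabp1: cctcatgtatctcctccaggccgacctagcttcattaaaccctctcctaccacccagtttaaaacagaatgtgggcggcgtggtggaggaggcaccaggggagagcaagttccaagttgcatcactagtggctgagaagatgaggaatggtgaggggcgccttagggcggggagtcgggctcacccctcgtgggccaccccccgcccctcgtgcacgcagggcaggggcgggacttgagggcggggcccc
The repeat in *Cyp26a1* reads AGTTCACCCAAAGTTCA on its own strand and begins 32 bases before the start site. It was the only DR5 in the 13 promoters of the 7 members that the RefSeq table holds, and 0.0974% of all 32851 promoters held 1. A core, alone or repeated, was in 43.7% of all promoters, and of the members only *Aldh1a1*, *Stra6* and *Cyp26a1* had any. No DR2 or DR1 (the same cores spaced by 2 bases or 1 base, in 0.268% and 0.222% of all promoters) was found in a member. The letters TATAAA on the gene's strand, in 8.32% of all promoters, were found in *Cyp26a1* and *Cyp26b1*. In *Cyp26a1* they lie past the start site, outside the printed bases, and in *Cyp26b1* they begin 139 bases before it. These are matches of letters in a window, not bound sites. *Rdh10* and *Crabp2* have no entry in the table.

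Each of 3 members had a leading cell class, though UMIs were found in other classes too. *Aldh1a1* and *Stra6* were highest in Sertoli-like cells and *Crabp1* in germ-like cells, each at least 2-fold above the next class in both libraries. Of the 7 members with at least 100 UMIs over the 6 classes in each library, these 3 met that rule, against 21.2% of the 12735 genes that could be read the same way. *Cyp26b1* and *Dhrs3* were spread over stromal-like and myoid-like cells, *Dhrs3* also in macrophages. *Rdh10* had no class that led, *Aldh1a2* was highest in control germ-like cells at 13.3 CPM, and *Cyp26a1* and *Crabp2* stayed under 3 CPM in every class of the filtered cells.

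**Figure D1:**
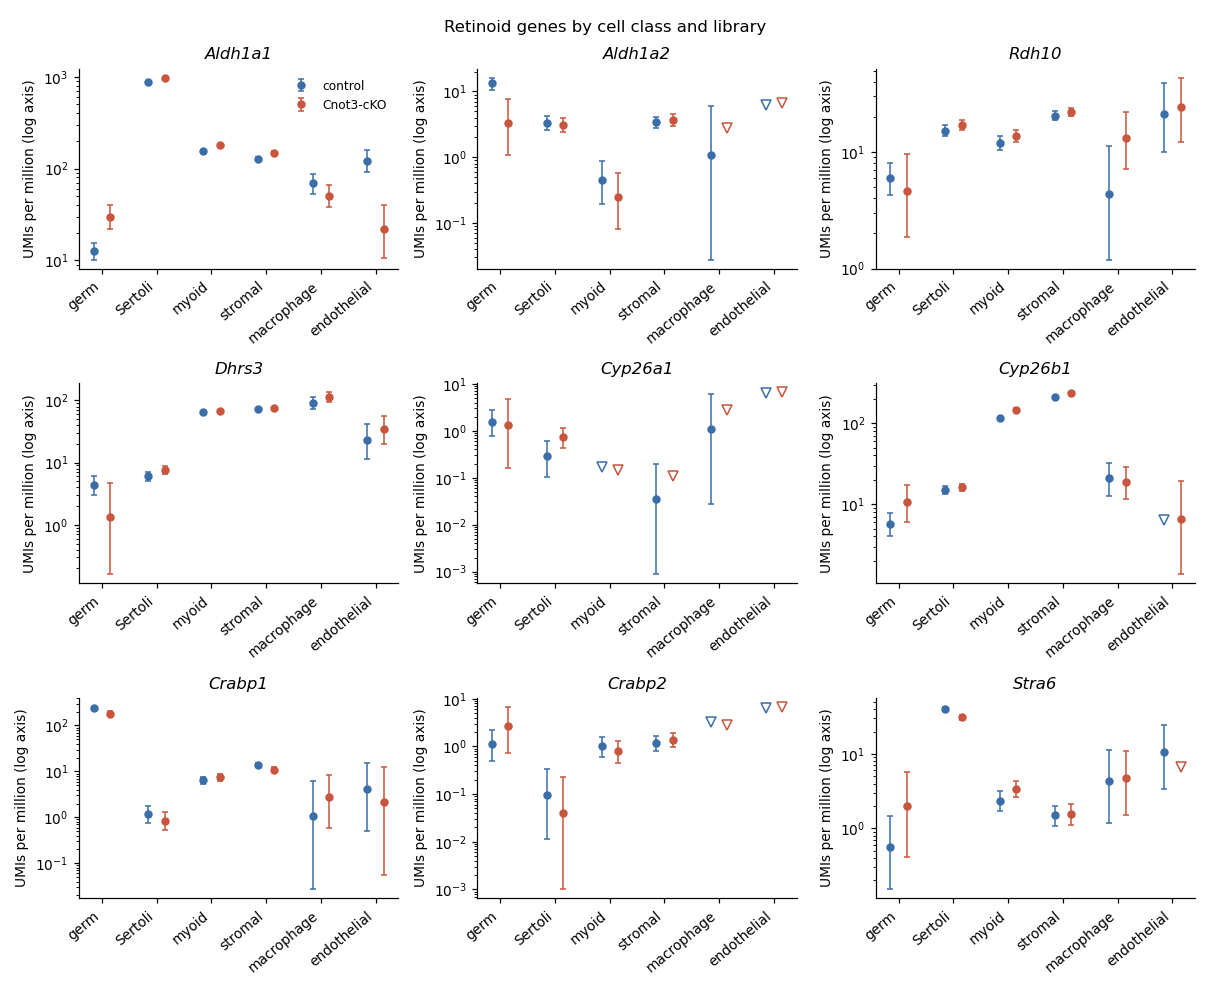
Level of each of the 9 retinoid genes (CPM, log axis) in the 6 cell classes of the control and Cnot3-cKO libraries, with exact 95% Poisson intervals as bars; an open triangle marks a class with no UMI and stands at the level that 3 counts would give. *Aldh1a1* peaks in Sertoli-like cells (884 and 964), *Cyp26b1* in stromal-like cells (214 and 236) and *Crabp1* in germ-like cells (243 and 181).

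*Stra6*, the retinol receptor, stood at 40.1 CPM in control (844 UMIs) and 31.2 CPM in Cnot3-cKO Sertoli-like cells (770 UMIs). The next class was endothelial-like cells in control, at 10.5 CPM from 5 UMIs, and macrophage-like cells in Cnot3-cKO, at 4.69 CPM from 5 UMIs. Myoid-like cells had 2.36 and 3.39 CPM, and stromal-like cells had 43 and 42 UMIs. Germ-like cells had 4 and 3 UMIs, and 1.32 and 1.31 CPM in the wider set. Below Sertoli-like cells, the order of the classes could not be read, since most neighbours did not differ beyond their counting intervals. After each cell was thinned to 7500 UMIs, 23.6% of control Sertoli-like cells (21.4 to 25.9%) and 18.7% of Cnot3-cKO Sertoli-like cells (16.9 to 20.7%) had a *Stra6* UMI. Unthinned, 38.2% and 30.7% of the cells had one (median depth 13827 and 13296 UMIs). In stromal-like cells the thinned shares were 1.17% and 1.26%.

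*Rdh10*, the enzyme of the first and rate-limiting oxidation, was found in every class at between 4.38 and 24.3 CPM. Stromal-like cells had 20.6 and 22.1 CPM (control and Cnot3-cKO), Sertoli-like cells 15.2 and 17.2, and myoid-like cells 12.1 and 13.7. Endothelial-like cells, at 21.1 and 24.3 CPM from 10 and 11 UMIs, did not differ from stromal-like cells beyond counting error. Germ-like cells had 5.93 and 4.63 CPM (42 and 7 UMIs), and 5.14 and 5.28 CPM in the wider set. The order stromal, Sertoli, myoid was the same in both libraries, and each step lay outside its counting interval. The thinned share of cells with a UMI was 13.7% and 14.8% in stromal-like, 8.36% and 9.92% in Sertoli-like and 8.01% and 9.31% in myoid-like cells.

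*Dhrs3*, which lowers retinaldehyde by reducing it, was highest in macrophage-like cells, with 90.9 and 113 CPM in the control and Cnot3-cKO libraries. Stromal-like cells followed at 71.7 and 76.6 CPM and myoid-like cells at 64.1 and 67.4. The level dropped to 6.04 and 7.57 CPM in Sertoli-like cells and to 4.37 CPM (31 UMIs) and 1.32 CPM (2 UMIs) in germ-like cells. The wider germ-like cells held 214 and 109 UMIs, with a log2 ratio of 0.15 (-0.19 to 0.49). A *Dhrs3* UMI was present in 38.0% (24.7 to 52.8%) and 47.5% (34.6 to 60.7%) of the thinned macrophage-like cells, in 33.2% and 33.9% of stromal-like cells and in 4.64% and 5.16% of Sertoli-like cells. RNA free in the suspension, measured in empty barcodes and scaled by Sertoli markers, would give 4.60 and 2.60 CPM of *Dhrs3* in macrophage-like cells. The part of free RNA in the level there was not tested.

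*Aldh1a1* was the most abundant member by UMIs. Sertoli-like cells had 884 CPM in control (18592 UMIs) and 964 CPM in Cnot3-cKO (23815 UMIs), and 98.2% and 98.0% of the thinned cells had a UMI. Myoid-like cells had 154 and 180 CPM and stromal-like cells 129 and 149, a lead of Sertoli-like cells over the next class of 5.74-fold and 5.35-fold. A UMI was seen in 54.5% and 57.1% of myoid-like and 41.4% and 45.3% of stromal-like cells.

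*Aldh1a1* in the other classes was set beside the Sertoli markers found there. Each Sertoli marker UMI, summed over the 7 markers, came with 0.187 and 0.203 *Aldh1a1* UMIs in Sertoli-like cells. The number was 0.216 and 0.195 in germ-like cells, 0.211 and 0.220 in macrophage-like cells and 0.185 and 0.476 in endothelial-like cells, the last from 10 *Aldh1a1* UMIs. In myoid-like cells it was 2.29 and 2.03 and in stromal-like cells 0.906 and 0.881. The part of Sertoli RNA in these levels was not tested. The class that differed most between libraries, endothelial-like cells, had 122 CPM in control and 22.1 in Cnot3-cKO, with 661 and 46.3 CPM of summed Sertoli markers, and 1 of the 33 control cells held 20 of the 58 UMIs.

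*Aldh1a2* was at 13.3 CPM in control germ-like cells (94 UMIs) and 3.31 CPM in Cnot3-cKO germ-like cells (5 UMIs). Stromal-like cells had 3.39 and 3.69 CPM and Sertoli-like cells 3.33 and 3.12, and myoid-like cells had 8 and 5 UMIs. In the wider set, with 766 and 281 UMIs, germ-like cells had 13.5 and 10.8 CPM. Germ-like cells were thus the highest class for *Aldh1a2* in control and in the wider set of both libraries, while the 5 UMIs of the filtered Cnot3-cKO germ cells could not be ranked against the stromal value. A UMI was found in 9.13% (5.81 to 13.5%) of the thinned control germ-like cells, against 1.99% of stromal-like and 2.29% of Sertoli-like cells of that library.

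*Crabp1*, a cytoplasmic binding protein of retinoic acid, stood at 243 CPM in control germ-like cells (1721 UMIs) and 181 CPM in Cnot3-cKO germ-like cells (274 UMIs). The next class, stromal-like cells, had 13.9 and 10.9 CPM, a lead of 17.4-fold and 16.6-fold. Myoid-like cells had 6.40 and 7.42 CPM and Sertoli-like cells 1.19 and 0.850. A *Crabp1* UMI was present in 68.0% (61.8 to 73.9%) of the 241 and 58.3% (46.1 to 69.8%) of the 72 thinned germ-like cells, and in 1.21% and 0.522% of Sertoli-like cells. Per UMI of the 7 germ markers there were 0.101 and 0.0712 *Crabp1* UMIs in germ-like cells and 0.0569 and 0.0571 in Sertoli-like cells, and 0.698 and 0.889 in stromal-like cells. The part of germ RNA in these levels was not tested.

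*Crabp2*, the related protein, had 62 UMIs in the control and 58 in the Cnot3-cKO library over all 6 classes. Germ-like cells had 1.13 CPM in control (8 UMIs) and 2.65 in Cnot3-cKO (4 UMIs), and 1.31 and 1.73 CPM in the wider set (74 and 45 UMIs). Stromal-like cells had 1.19 and 1.36 CPM, myoid-like cells 1.01 and 0.797, and Sertoli-like cells 2 and 1 UMIs. The germ, stromal and myoid values did not differ beyond counting error between neighbours in their order. Macrophage-like and endothelial-like cells had none in either library, which allows up to 3.29 and 2.81 CPM in the former.

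*Cyp26b1*, the enzyme that keeps retinoic acid from fetal germ cells, was at 214 CPM in control (6124 UMIs) and 236 CPM in Cnot3-cKO stromal-like cells (6400 UMIs). Myoid-like cells followed at 116 and 148 CPM, 1.84-fold and 1.60-fold below. Macrophage-like cells had 20.8 and 18.8 CPM and Sertoli-like cells 14.9 and 16.1, which did not differ beyond counting error. Germ-like cells had 5.64 and 10.6 CPM, from 40 and 16 UMIs, and free RNA alone would give 2.07 and 5.55. The wider germ-like cells had 9.39 and 11.1 CPM. A UMI was seen in 44.5% and 48.4% of stromal-like and 40.1% and 46.5% of myoid-like cells.

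*Cyp26a1* had 19 and 20 UMIs over the 6 classes. Of these, 11 and 2 came from germ-like cells, which is 1.55 and 1.32 CPM, and 6 and 18 from Sertoli-like cells, which is 0.285 and 0.729 CPM. Myoid-like cells had none in either library, which allows up to 0.168 and 0.149 CPM. The wider set held 180 and 45 *Cyp26a1* UMIs in the germ-like cells of control and Cnot3-cKO, or 3.18 CPM (2.73 to 3.68) and 1.73 CPM (1.26 to 2.32), against 0.337 and 0.518 CPM in Sertoli-like cells. It was the member with the DR5 shown above, and 1.66% of the thinned control germ-like cells (0.454 to 4.19%) had a UMI.

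Transcripts of synthesis and of breakdown were weighted differently among the classes. All retinaldehyde dehydrogenases that make retinoic acid (*Aldh1a1*, *Aldh1a2* and *Aldh1a3*) were summed, and so were the CYP26 genes (*Cyp26a1*, *Cyp26b1* and *Cyp26c1*), each molecule being 1 UMI whatever its length. The ratio of these UMIs is read here only between classes, since capture differs between transcripts. Sertoli-like cells had 58.6 ALDH1A UMIs per CYP26 UMI in control (52.4 to 65.6) and 57.5 in Cnot3-cKO (52.2 to 63.5). Myoid-like cells had 1.35 (1.27 to 1.43) and 1.24 (1.18 to 1.31). Stromal-like cells had 0.683 (0.657 to 0.711) and 0.730 (0.703 to 0.758). The order of these 3 classes was the same in both libraries, with stromal-like cells lowest. For germ-like cells the ratio was 4.00 and 2.89, and the Sertoli markers beside their *Aldh1a1* are given above.

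**Figure D2:**
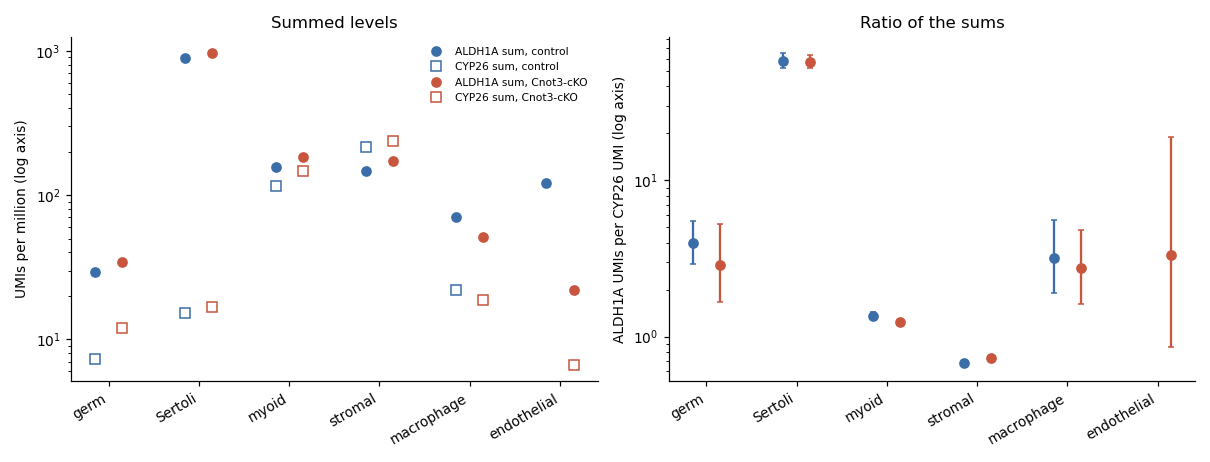
Left, summed CPM of the ALDH1A genes (filled circles) and CYP26 genes (open squares) in each class and library on a log axis. Right, ALDH1A UMIs per CYP26 UMI on a log axis with exact 95% intervals; control endothelial-like cells had no CYP26 UMI and have no ratio. Sertoli-like cells lie at 58.6 and 57.5, stromal-like cells at 0.683 and 0.730.

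Between clusters 6 and 7 of the Sertoli-like class, *Aldh1a1* differed one way and *Stra6* and *Rdh10* the other. The members had been left out of the clustering, so the clusters were formed by other genes. Cluster 6, the largest, had 1057 CPM of *Aldh1a1* in control (865 cells) and 1179 in Cnot3-cKO (1108 cells). Cluster 7, rich in *Tnni3*, had 550 and 537 CPM (282 and 341 cells), and cluster 1, which carries *Top2a* and *Mki67* of dividing cells, had 731 and 725.

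*Stra6* ran the other way, with 71.4 and 56.0 CPM in cluster 7 against 27.3 and 19.2 in cluster 6. So did *Rdh10*, with 43.6 and 57.1 CPM in cluster 7 against 6.11 and 4.94 in cluster 6. *Cyp26b1* followed *Aldh1a1*, with 20.6 and 19.0 CPM in cluster 6 and 4.43 and 10.8 in cluster 7. In single thinned Sertoli-like cells, 41.0% of those with an *Rdh10* UMI and 22.0% of those without had a *Stra6* UMI in control, and 32.7% and 17.2% in Cnot3-cKO. By *Aldh1a1*, which nearly all cells held, the shares with a *Stra6* UMI were 23.6% with and 20% without in control, and 18.2% and 42.9% in Cnot3-cKO, with few cells in the group without (1375 of 1400 and 1689 of 1724 had it).

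The stromal-like class held both an *Aldh1a1*-rich and an *Aldh1a1*-poor cluster. Cluster 5, led by *Smoc2*, had 208 and 222 CPM of *Aldh1a1*, 328 and 324 of *Cyp26b1*, 108 and 108 of *Dhrs3* and 23.5 and 16.9 of *Crabp1*. Cluster 4, led by *Dlk1*, *Dcn* and *Clec3b*, had 38.3 and 40.6 CPM of *Aldh1a1*, 83.5 and 104 of *Cyp26b1*, 30.3 and 29.9 of *Dhrs3* and 3.06 and 2.02 of *Crabp1*. All 4 were higher in cluster 5 in both libraries. *Aldh1a2* was the exception, with 6.42 and 7.25 CPM in cluster 4 and 0.721 and 1.29 in cluster 5. In single thinned stromal-like cells, a *Dhrs3* UMI was found in 46.0% and 45.3% of cells with an *Aldh1a1* UMI and in 24.1% and 24.4% of those without. Values from sums and from single cells share libraries and depth and are given as descriptions.

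**Figure D3:**
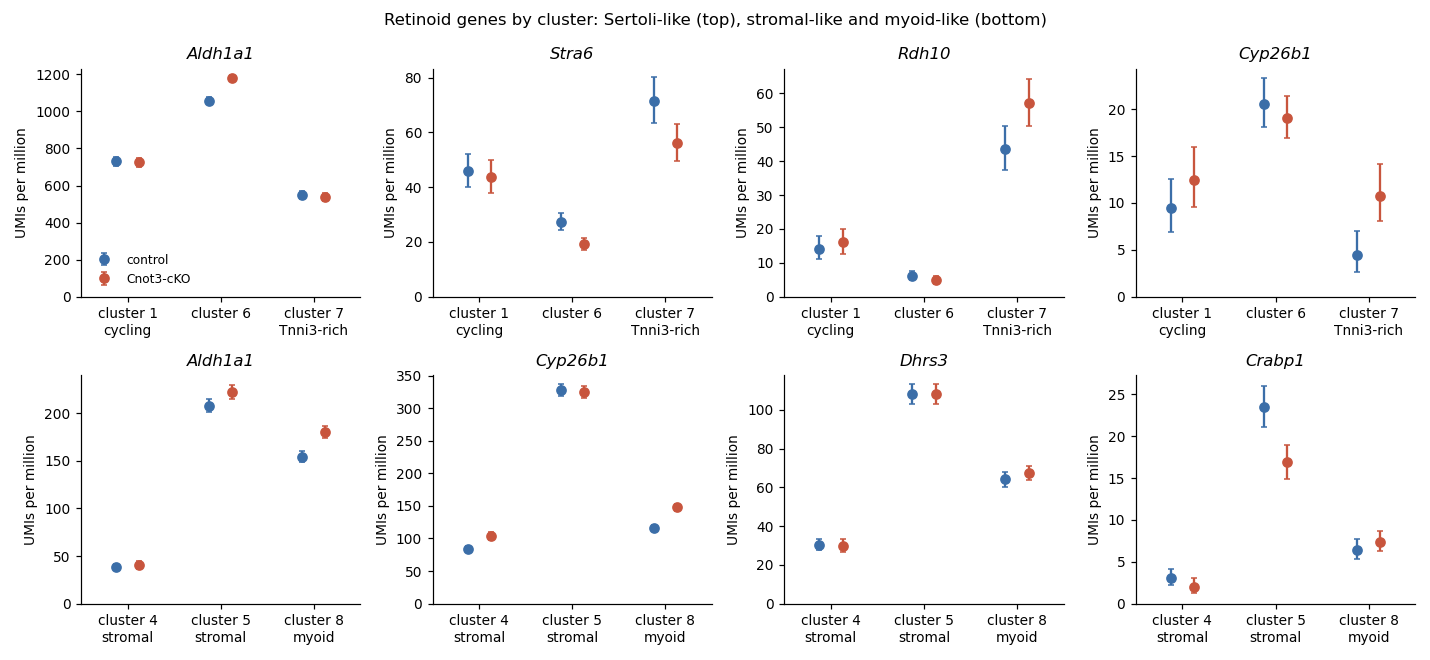
CPM of 4 members in the 3 Sertoli-like clusters (top) and in the stromal-like and myoid-like clusters (bottom), by library, with exact 95% Poisson intervals. *Aldh1a1* and *Cyp26b1* are higher in cluster 6 than in cluster 7, *Stra6* and *Rdh10* lower, and all 4 genes of the lower row are higher in cluster 5 than in cluster 4.

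Among germ-like cells, *Crabp1* was higher in cells with a *Kit* UMI and lower in cells with a *Gfra1* UMI, while many cells without those marks held it too. *Stra8*, a gene induced by retinoic acid, was used to divide the thinned cells by a UMI. In control, cells with a *Stra8* UMI had 248 CPM of *Crabp1* (214 to 286, 101 cells) and those without had 209 (182 to 238, 140 cells). In Cnot3-cKO the values were 240 and 165 CPM (25 and 47 cells), and in both libraries the interval of the log2 ratio included 0 (-0.04 to 0.54 and -0.05 to 1.13). In the wider set, with 584 and 749 control cells and 189 and 371 Cnot3-cKO cells, the ratios were 0.50 (0.37 to 0.63) and 0.47 (0.26 to 0.68).

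Divisions by *Kit*, the receptor of differentiating spermatogonia, and by *Gfra1*, the receptor subunit of the most undifferentiated ones, were added after the *Stra8* values were seen. With a *Kit* UMI, *Crabp1* stood at 378 CPM in control (66 cells) and 314 in Cnot3-cKO (14 cells), and without it at 168 and 161. With a *Gfra1* UMI, *Crabp1* stood at 56.6 CPM (33 cells) and 80.0 CPM (20 cells), and without it at 252 and 233. The wider set gave 84.1 and 71.1 CPM with a *Gfra1* UMI and 223 and 225 without. Within each of these divisions the intervals of the libraries overlapped. Under the stated filter some rest on as few as 14 Cnot3-cKO cells, so overlap does not show that the values were equal.

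**Figure D4:**
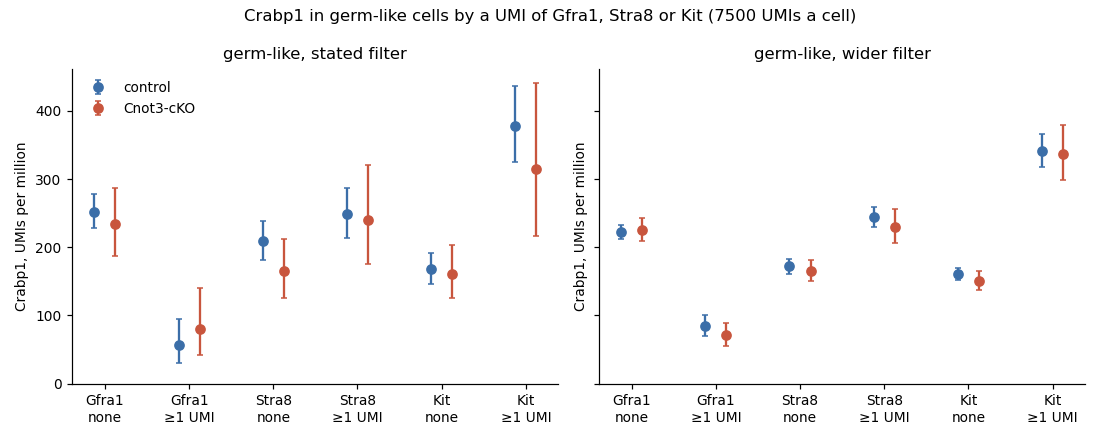
*Crabp1* level (CPM) in germ-like cells with and without a UMI of *Gfra1*, *Stra8* or *Kit*, each cell thinned to 7500 UMIs, under the stated filter (left) and in the wider set (right), with exact 95% Poisson intervals. Cells with a *Gfra1* UMI are lowest (56.6 to 84.1) and cells with a *Kit* UMI highest (314 to 378) in both libraries.

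The wider germ-like cells fell into a pair of clusters that repeat this division. Cluster 10, with 111 and 92.8 CPM of *Kit* and 0.720 and 0.546 of *Gfra1*, had 421 and 405 CPM of *Crabp1* in control and Cnot3-cKO. Cluster 11, with 18.5 and 19.9 CPM of *Kit* and 26.5 and 55.6 of *Gfra1*, had 124 and 127. *Aldh1a2* differed less, with 17.6 and 15.3 CPM in cluster 10 and 11.8 and 9.63 in cluster 11. *Cyp26a1* had 1.98 CPM in control and no UMI in Cnot3-cKO cluster 10, and 3.68 and 2.20 CPM in cluster 11.

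Among pairs of member and class with at least 100 UMIs in the filtered cells, no somatic class held a difference of 1.5-fold between the libraries. In Sertoli-like cells 0 of the 6 members that reached 100 UMIs over the libraries together were 1.5-fold or more apart, against 1.77% of 11071 genes, in myoid-like cells 0 of 6 against 2.02% of 10937, and in stromal-like cells 0 of 6 against 1.51% of 11691. Neither of the 2 in macrophage-like cells passed (12.1% of 2996 genes), and no member had enough UMIs in endothelial-like cells (8.27% of 1560). Below that minimum, *Aldh1a1* in endothelial-like cells had a log2 ratio of -2.47 (-3.60 to -1.49) on 58 and 10 UMIs, against -0.31 among the wider cells. In the wider Sertoli-like cells *Crabp1* met the minimum, on 81 and 49 UMIs, and was past 1.5-fold, with a log2 ratio of -1.25 (-1.80 to -0.72). Summed germ markers in those cells were 23.4 CPM in control and 12.7 CPM in Cnot3-cKO. Per germ marker UMI there were 0.0835 and 0.0644 *Crabp1* UMIs, against 0.0893 and 0.0743 in the wider germ-like cells. The part of germ RNA in that difference was not tested. In germ-like cells 1 of 2 passed, against 10.4% of 8032 genes. With so few members read in each class, none of these shares sets the members apart from other genes.

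**Figure D5:**
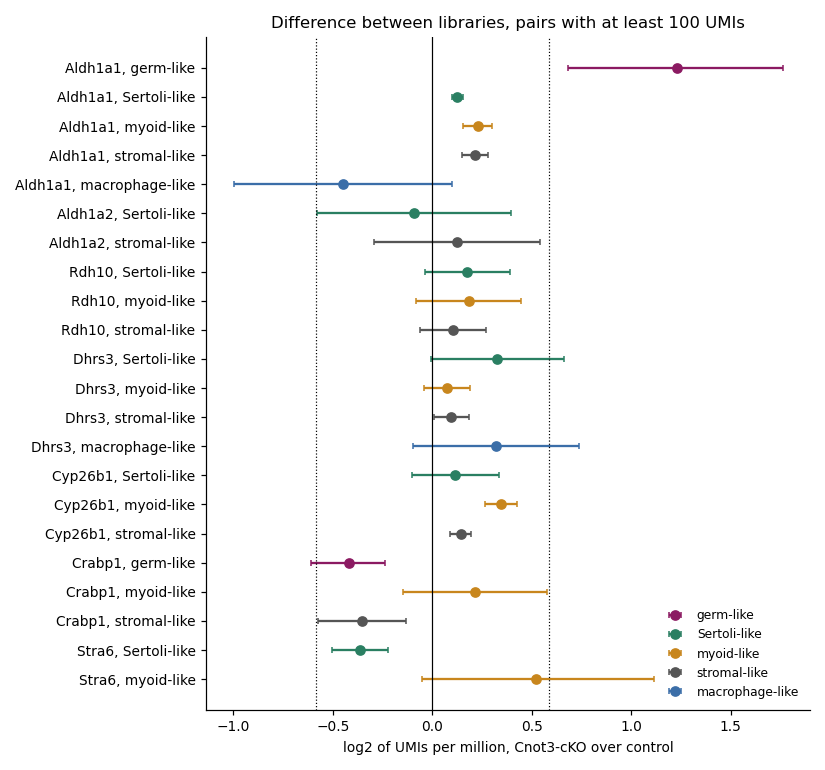
Log2 of the level in Cnot3-cKO over control for the 22 pairs of member and class with at least 100 UMIs, with exact conditional 95% intervals for counting error; the solid line is no difference and dotted lines are 1.5-fold. *Aldh1a1* in germ-like cells, at 1.23, is the point past a dotted line.

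*Stra6* in Sertoli-like cells was lower in Cnot3-cKO, with a log2 ratio of -0.36 (-0.51 to -0.22), and its level was lower in each of the 3 Sertoli-like clusters, though in cluster 1 the intervals overlapped. The wider set gave -0.35 from 1704 and 1925 UMIs. *Cyp26b1* in myoid-like cells was higher, at 0.35 (0.27 to 0.43), and the value in stromal-like cells was 0.14 (0.09 to 0.19). At Leiden resolution 1.0 the clusters did not all move that way. The largest myoid-like cluster had 107 and 150 CPM of *Cyp26b1*. Unnamed cluster 9, led by *C1qtnf3* and *Myh11*, had 157 and 149 CPM (336 and 611 cells). Stromal-like cluster 5 had 361 and 330 CPM, and stromal-like cluster 12 had 157 and 173. The part of the mix of clusters in the ratios was not tested. *Aldh1a1* had log2 ratios of 0.13 (0.10 to 0.15) in Sertoli-like, 0.23 (0.16 to 0.30) in myoid-like and 0.22 (0.15 to 0.28) in stromal-like cells. These intervals leave out the spread between animals and libraries, which cannot be read from 1 library per genotype.

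*Aldh1a1* in germ-like cells, the member past 1.5-fold, had 12.7 CPM in control (90 UMIs) and 29.8 in Cnot3-cKO (45 UMIs), a log2 ratio of 1.23 (0.68 to 1.76). Sertoli markers moved with it, at 58.7 and 153 CPM, and the level that free RNA would give was 10.9 and 36.2 CPM. In the wider set, *Aldh1a1* was 26.9 and 31.9 CPM, a log2 ratio of 0.25, with Sertoli markers at 113 and 146 CPM. Under the stated filter, the free RNA level in Cnot3-cKO was above the measured one. After the empty-barcode profile was subtracted, *Aldh1a1* was not called in germ-like cells. Beyond that subtraction, the part of free or Sertoli RNA in the difference was not tested.

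*Crabp1* in germ-like cells had a log2 ratio of -0.42 (-0.61 to -0.24), and -0.19 (-0.24 to -0.14) in the wider set. Within the wider germ-like clusters, *Crabp1* was 421 and 405 CPM in cluster 10 and 124 and 127 CPM in cluster 11. Cluster 10 held 421 control and 132 Cnot3-cKO cells, and cluster 11 held 912 and 428. The part of this mix of clusters in the ratio was not tested. In stromal-like cells the log2 ratio of *Crabp1* was -0.35 (-0.57 to -0.13). Empty barcodes held 62.8 CPM of *Crabp1* in control and 41.9 in Cnot3-cKO, and after this profile was subtracted the stromal ratio was -0.10. The subtraction is scaled by Sertoli or interstitial markers, and for Sertoli-like cells it would give 3.38 and 2.80 CPM of *Crabp1*, more than the 1.19 and 0.850 measured there. *Aldh1a2* in germ-like cells, with 94 and 5 UMIs, was just under the 100 UMIs required over both libraries, and the interval of its log2 ratio ran from -3.66 to -0.73, while the wider set gave -0.32 (-0.52 to -0.12). *Cyp26a1* in the wider germ-like cells had a log2 ratio of -0.87 (-1.38 to -0.40).

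Other genes of the pathway were read from fixed lists. None of the retinoid receptors (4 of 6 measured in myoid-like and stromal-like, 3 in Sertoli-like and in germ-like cells), none of the other retinoid enzymes (9 of 22 measured in Sertoli-like and in stromal-like cells, 8 in myoid-like, 2 in germ-like) and none of the storage genes (2 of 4 in Sertoli-like, myoid-like and stromal-like, 1 in germ-like cells) was 1.5-fold apart in those classes. Their median log2 ratios lay between -0.23 and 0.28, and the medians of all genes between -0.02 and 0.04. In macrophage-like cells 2 of the enzymes and in endothelial-like cells 1 was measured, and none was apart. Of 5 germ genes induced by retinoic acid that were measured in germ-like cells, 1 was lower, *Stra8*, at 157 and 98.0 CPM (log2 -0.68, -0.93 to -0.43), and the median of the 5 was -0.45. Over all genes of that class 10.4% were called, so 1 of 5 does not set the list apart.

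The receptor gene *Rara* was highest in Sertoli-like cells, at 76.6 and 81.9 CPM, and germ-like cells held 9.17 and 9.27 CPM of *Rarg*. *Aldh1a3*, the third dehydrogenase, was highest in stromal-like cells, at 14.0 and 19.1 CPM, the class where *Cyp26b1* was highest too. *Lrat*, which esterifies retinol for storage, had 4.21 CPM in control endothelial-like cells, 2 UMIs, and at most 0.398 CPM in the other classes.

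Genes of like pattern were ranked by Pearson's r of log2(CPM + 1) over the 12 points of class and library, among 11492 genes with at least 500 UMIs. Nearest to *Aldh1a1* were *Greb1* (0.99), *Rgs22* (0.98) and *Gamt* (0.98), and nearest to *Stra6* were *Wfdc10* (0.98), *Rasl12* (0.97) and *Mro* (0.97). *Crabp1* was closest to *Fam178b* (0.97), *Igfbp2* (0.97) and *Cdca7* (0.96), and *Cyp26b1* to *Ror2* (0.97), RP23-328F3.4 (0.97) and *Rarres2* (0.97). *Dhrs3* was closest to *Emp3* (0.98), *Pold4* (0.97) and *Hebp1* (0.97). For *Rdh10*, *Aldh1a2* and *Crabp2* the nearest genes were RP23-128C4.4 (0.95), *Hspb11* (0.92) and *Trpc1* (0.97), on few UMIs in several classes. The 12 points share 2 libraries and their depths, so these are descriptions.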

How the data were processed

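The deposited values are UMI counts per gene and barcode that, by the submitters' processing notes, the authors obtained from Cell Ranger 3.0.1 on mm10 with Ensembl build 93, without cell calling. Both samples of a genotype share 1 matrix, so groups come from the genotype labels and no sample or run could be separated.

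Cells were called by Cell Ranger's order-of-magnitude rule with 3000 expected cells, at 7976.8 UMIs in control (8341 barcodes) and 7664.4 in Cnot3-cKO (9336). As in the study's filter, cells were dropped above 10% mitochondrial UMIs or more than 2 SD from the mean UMIs or genes. The numbers kept are above those the study gives, and how it called cells first is not stated. Scrublet (scanpy 1.11.5) called 486 and 459 doublets, which were kept here and removed in an alternative. Clustering used 2500 variable genes without the members and pathway lists, 30 components, 15 neighbours and Leiden resolution 0.5. Clusters were named from marker lists by a rule settled after the data were seen. Clusters with markers of several classes, or from 1 library, stayed unnamed.

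UMIs were summed per class and library and divided by the class total. Intervals are exact Poisson, Clopper-Pearson and conditional ones, at 95%, for counting error only, and 0 UMIs were read as allowing 3 counts. No p-value or standard error was computed. Shares of cells were taken after thinning each cell to 7500 UMIs, and no cell was shallower. Free RNA was estimated from barcodes of at most 100 UMIs, scaled by Sertoli markers (in Sertoli-like cells, myoid and stroma markers). Fold calls, ratio intervals and leading-class calls were tried on simulated data, and the free RNA estimate was not. Positions and promoters are GRCm38. The members and lists were chosen with earlier results of these data known. Named genes are the 9 members, the called genes of the reported lists and 3 genes of like pattern for each member with at least 100 UMIs. The list of carrier and uptake genes is not reported here. *Rara*, *Rarg*, *Aldh1a3*, *Lrat*, *Kit* and *Gfra1* were named after their values were seen. Alternatives covered cell filters, doublets, free RNA, resolution, class assignment, totals, thinning, calling, the UMI minimum and centring.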

Additional observations from a re-analysis of the deposited data

Results flagged for a closer look

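*Dhrs3* stood apart in a cluster that no comparison used. Cluster 13 held 88 Cnot3-cKO cells and 0 control cells, and carried genes of myoid and stromal cells (*Tagln*, *Col14a1*, *Acta2*). It had 204 CPM of *Dhrs3* (202 UMIs). The highest named class, macrophage-like cells, had 90.9 CPM in control and 113 CPM in Cnot3-cKO. Single clusters can lie above whole classes, and stromal-like cluster 5 at Leiden resolution 1.0 had 139 and 131 CPM. *Cyp26b1*, which every stromal-like and myoid-like cluster of the control library held at 83.5 CPM or more, had 3 UMIs there, or 3.03 CPM. At Leiden resolution 1.0 a like cluster, led by *Tagln* and *Igfbp3* and named myoid-like by the marker rule, held 20 control and 97 Cnot3-cKO cells. It had 177 CPM of *Dhrs3* (131 to 233) and 1 *Cyp26b1* UMI in control, and 192 CPM (167 to 220) and 1 UMI in Cnot3-cKO. The lowest other stromal-like and myoid-like control clusters at that resolution had 50.9 and 63.9 CPM of *Cyp26b1*. At that resolution, high *Dhrs3* with little *Cyp26b1* was thus seen in both libraries. *Aldh1a1* in this cluster was 145 CPM (104 to 196) in control and 39.7 CPM (28.7 to 53.5) in Cnot3-cKO. Under other settings, clusters led by *Tagln* held 0 control and 85 Cnot3-cKO cells (doublets left out), 2 and 87 (wider set) and 3 and 107 (calling threshold halved). Whether the 20 control cells are of the same kind was not tested, and the number of such cells per library has no replicate.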

How the results depend on the processing

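The number of members with a leading class, 3, was 4 in the wider cell set, 2 with a 4-fold lead and 3 under the other 9 alternatives. In germ-like cells the number of members at least 1.5-fold apart, 1 (*Aldh1a1*), was 0 with doublets left out, with classes set by marker UMIs, after subtraction of the empty-barcode profile and with cells thinned, and 4 with at least 20 UMIs. In the wider set it was again 1, but *Cyp26a1* and not *Aldh1a1*, whose log2 ratio was 0.25 there. In Sertoli-like cells it was 1 in place of 0 in the wider set (*Crabp1*) and with at least 20 UMIs (*Cyp26a1*, 6 and 18 UMIs). In myoid-like cells it was 1 after subtraction (*Crabp1*, log2 ratio 0.66), and in endothelial-like cells 2 with at least 20 UMIs. Fewer cells or UMIs per class lower the number of members read; otherwise the cause was not tested. Of 22 log2 ratios, 7 moved beyond their counting interval with classes set by marker UMIs, 3 in the wider set, 4 of 20 after subtraction, and at most 2 under each of the others. Counting the 1-library cluster as myoid-like, an alternative chosen after seeing the data, moved 1. Of 44 levels, 22 moved beyond their interval with marker classes, 21 after subtraction, 16 with mitochondrial UMIs left out of totals, 13 with thinning and at most 8 under each of the others. No paired analysis was possible because the samples of a genotype are merged in 1 matrix, and no replicate could be left out for the same reason.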

Other observations

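Unnamed clusters carried members as well. Cluster 2, led by genes of dividing cells such as *Mki67* and *Top2a* (354 control and 234 Cnot3-cKO cells), had 98.0 and 99.8 CPM of *Aldh1a1*, 116 and 114 of *Cyp26b1* and 24.3 and 11.7 of *Crabp1*. Cluster 3, led by Sertoli genes and unnamed because another marker list also scored high (209 and 236 cells, median depth 24721 UMIs), had 505 and 521 CPM of *Aldh1a1* and 99.2 and 107 of *Cyp26b1*. Sertoli-like clusters 6 and 7 had median depths of 13069 and 13598 UMIs. With doublets left out, no unnamed cluster led by Sertoli genes was found. The part of doublets in the levels of cluster 3 was not tested. A cluster of 10 and 11 cells led by *Rmst*, *Igfbp2* and *Pax8* had 397 and 532 CPM of *Aldh1a1*.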
